A study of Mus musculus with 4 samples.

Results

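Interferon-induced genes and inflammatory genes of the NF-kB type were examined in developing mouse heart valves with and without Brg1. The set held 38 genes, taken as the rows of the deposited count table whose symbol stood in a list of 33 interferon-induced genes and 5 NF-kB type genes (Nfkbia, Il1b, Tnf, Icam1 and Vcam1). Of the 38, 37 had a row among 23337 gene rows. Ifi27 had no row under that symbol and was not analysed here, because its older names lead to more than 1 row. The tissue was cardiac cushion, the part of the atrioventricular canal and outflow tract that forms the valves, dissected at embryonic day 14.5 from C57BL/6 embryos. One group of 2 libraries came from Nfatc1Cre;Brg1F/F mutants, in which a Cre recombinase driven from Nfatc1 removes floxed Brg1 in the endocardium and the cells that derive from it. The other group of 2 libraries came from wildtype littermates. According to the labels, the GFP of a Cre reporter guided the dissection in both groups, and total RNA was sequenced after ribosomal RNA depletion. Whether a library held 1 embryo or a pool is not given, so p-values here reflect how far apart these libraries lie, some of which can be technical.

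Type I and type III interferons are secreted when cells detect foreign or misplaced nucleic acid, and type II interferon is made by lymphocytes. Their receptors activate JAK kinases and STAT proteins; STAT2 and IRF9 belong to a complex that binds a DNA element called ISRE, while STAT dimers bind the GAS element. The induced proteins sense RNA, block its translation, degrade it, hinder viral entry or release, and cut antigens. NF-kB is a separate transcription factor family, held in the cytoplasm by inhibitors such as the product of Nfkbia until cytokine or pathogen receptors signal. Some of these genes also have a steady level without infection: Vcam1, for one, is made in embryonic heart as an adhesion molecule. Brg1, encoded by Smarca4, is an ATPase subunit of the SWI/SNF chromatin remodelling complex.

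Levels are given as CPM, the reads of a gene scaled to a common library size. Reads in genes numbered 19218820 and 15790338 in wildtype 1 and 2, and 22426537 and 14104458 in mutant 1 and 2; 3 reads equalled 0.134 to 0.213 CPM. Smarca4 itself was at 251 and 231 CPM in wildtype and at 282 and 239 CPM in mutants (log2 fold change 0.11 ± 0.14 SE, adjusted p = 0.979, edgeR), so the whole-gene count, which is not resolved to the floxed exons and includes cells without Cre, showed no fall. Mutant and wildtype therefore mean libraries labelled as such throughout. Mutant 2 differed from the other 3 libraries in sex-linked transcripts: Xist was at 13.3 CPM there and at 2046 to 2657 CPM elsewhere, and Ddx3y had 3384 reads there and 0 to 28 elsewhere. Summed markers of cushion mesenchyme lay between 5333 and 6161 CPM, with the groups overlapping. Endocardial sums were lower in both mutants (1225 and 1260 CPM) than in either wildtype library (1287 and 1320 CPM). Of the 8 endocardial rows, 1 had both mutants below both wildtype libraries and 2 had both above. The row below was Npr3, at 242.5 and 228.4 CPM in wildtype and at 123.6 and 131.5 CPM in mutants. The median log2 fold change of the 8 was -0.0019, so the lower sums do not describe the list as a whole. Over all 23337 gene rows, 2889 had both mutants below and 3149 both above. Cardiomyocyte sums were also lower in both mutants (48955 and 51466 CPM) than in either wildtype library (60390 and 55103 CPM). Of the 6 cardiomyocyte rows, 3 had both mutants below and 0 above. Myocardial RNA was therefore present in every library. Whether tissue make-up differed between the groups was not tested.

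Promoters are shown first, since the ISRE is the element bound by the complex that holds STAT2 and IRF9. The RefSeq promoter table (build GRCm38.p6) covers 250 bases before to 50 bases after each start and held 27 of the 33 interferon-induced genes and 4 of the 5 NF-kB type genes. Not matched were Usp18, Oas2, Mx1, Ifi27, Rtp4, Parp14 and Vcam1. The ISRE was searched on both strands as GAAA, 2 bases of any kind, GAAA. The 4 stretches below belong to the ISRE-holding members with the lowest unadjusted p. They are Oas1a, 160 bases before the start (chr5:120907526-120907685, minus strand), Ifit3, 160 bases before the start (chr19:34583369-34583528, plus strand), Ifih1, a stretch of 30 bases that ends 50 bases after the start (chr2:62646206-62646235, minus strand), and Gbp3, 160 bases before the start (chr3:142559884-142560043, plus strand). Capitals mark ISRE matches, each strand written 5′ to 3′ in the direction of the gene.
Oas1a: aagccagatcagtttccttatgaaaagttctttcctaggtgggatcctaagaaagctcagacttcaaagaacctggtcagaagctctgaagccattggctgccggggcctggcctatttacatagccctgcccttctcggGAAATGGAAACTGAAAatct
Ifit3: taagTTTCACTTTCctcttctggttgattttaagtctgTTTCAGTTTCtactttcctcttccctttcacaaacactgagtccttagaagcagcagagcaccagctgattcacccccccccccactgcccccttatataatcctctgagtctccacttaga
Ifih1: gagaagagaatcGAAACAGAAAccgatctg
Gbp3: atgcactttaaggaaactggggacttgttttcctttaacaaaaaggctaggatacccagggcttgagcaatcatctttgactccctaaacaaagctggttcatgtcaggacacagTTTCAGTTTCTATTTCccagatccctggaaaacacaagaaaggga

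In Oas1a the capitals span 2 overlapping matches that begin 20 and 14 bases before the start. Gbp3 also held 2 overlapping matches, on the opposite strand, where the element reads TTTC, 2 bases, TTTC; they begin 45 and 39 bases before the start. The 2 matches of Ifit3, likewise on the opposite strand, stand apart, at 156 and 122 bases before the start. The single match of Ifih1, which encodes the RNA sensor MDA5, begins 32 bases after the start. An ISRE was found in 13 of the 27 interferon-induced genes (48.1%) against 1079 of 27025 genes in the table (3.99%). The 13 were Stat2, Ifih1, Ddx58, Isg15, Ifit1, Ifit3, Oas1a, Rsad2, Gbp2, Gbp3, Bst2, Ifitm2 and Ifitm3. Genes searched without a match included Oasl2 and Psmb8, which are described further below. A GAS element, TTCNNNGAA, which reads the same on both strands, was found in 9 of 27 (33.3%) against 2582 of 27025 genes (9.55%). The NF-kB consensus stood in 2 of 27 interferon-induced promoters (7.41%), those of Irf1 and Bst2, against 1388 of 27025 genes (5.14%). Among the NF-kB type genes with a promoter in the table, 0 of 4 held an ISRE, Icam1 held a GAS and Nfkbia the NF-kB consensus. A match is a stretch of letters, and binding was not measured.

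Most members were transcribed at low levels. Per length of exon (CPM per kilobase, mean over 4 libraries), Ifitm2 stood highest at 33.8, followed by Vcam1 at 14.6, Nfkbia at 10.3, Ifitm3 at 9.24, Ifit2 at 8.04, Trim25 at 5.02 and Samhd1 at 4.14. The lowest were Psmb9 at 0.0669 and Ifi44 at 0.0438. Ifitm2 encodes a small membrane protein that hinders viral entry, and part of its exons overlaps another annotated gene, so its level is uncertain. Between mutants and wildtype, the log2 fold changes of these 7 ranged from -0.17 to 0.34. Among tested members, those with the largest fitted differences, Mx1, Oas1a, Oas2 and Il1b, had mean levels per length between 0.173 and 0.302.

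**Figure D1:**
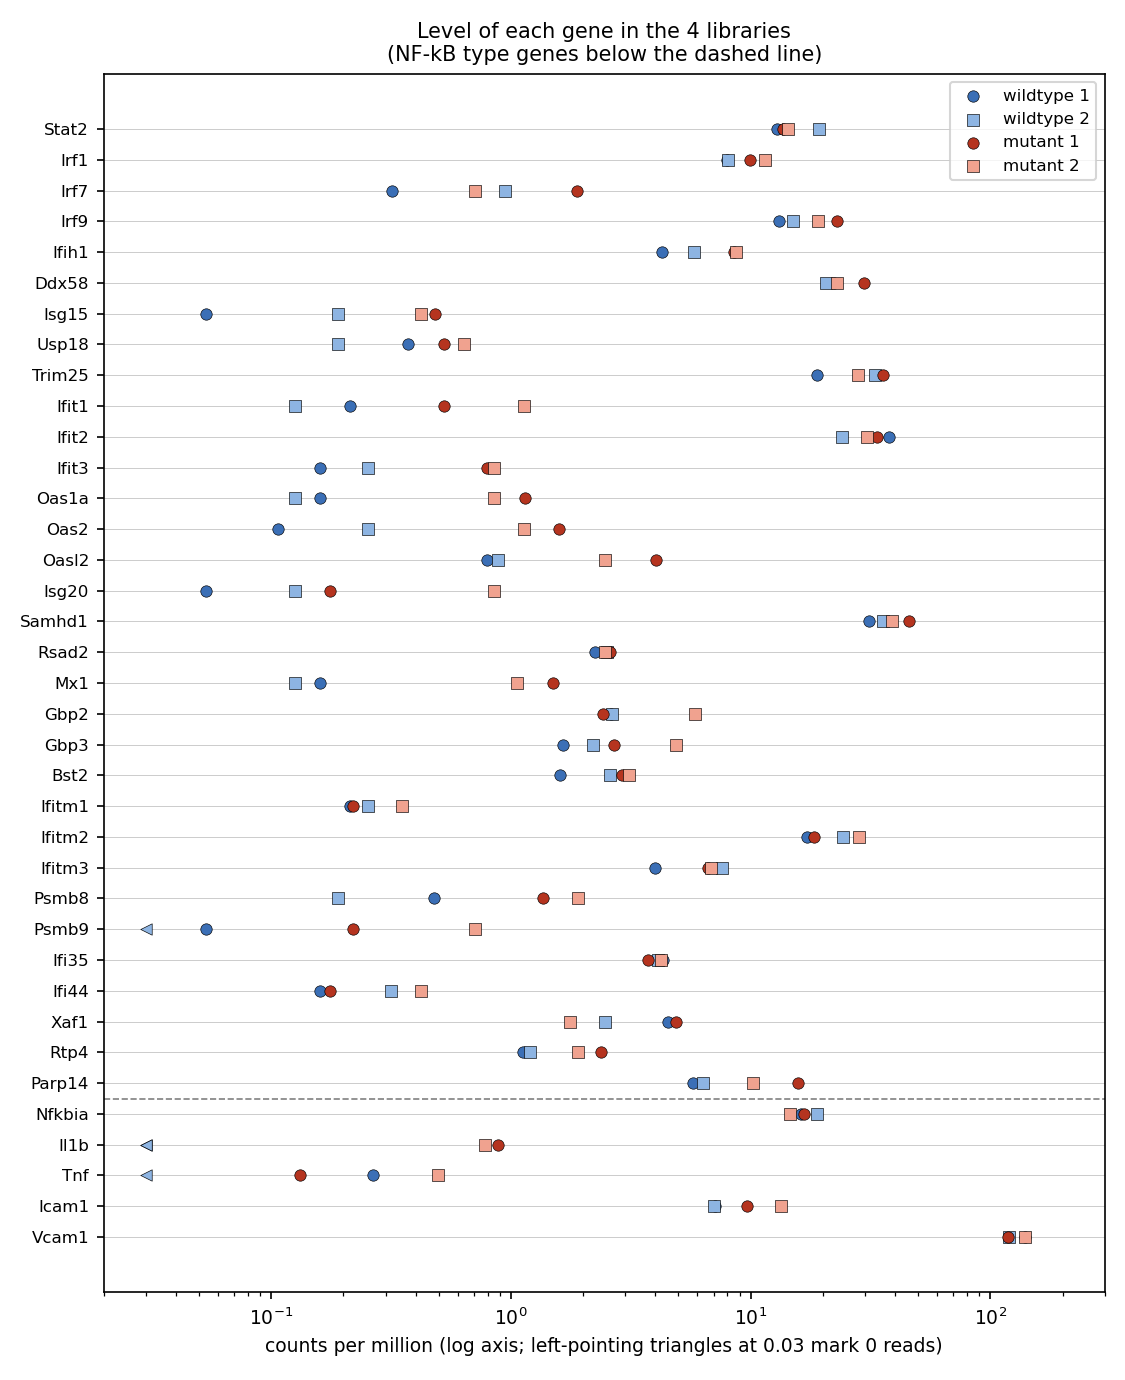
Level of the 37 members with a row in each of the 4 libraries, in CPM on a log axis; circles are the libraries numbered 1, squares those numbered 2, blue wildtype and red mutant, and triangles mark 0 reads. Mx1, Oas1a, Oas2, Oasl2 and Psmb8 have both mutant points to the right of both wildtype points, while the abundant Vcam1 and Ifit2 overlap.

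Many interferon-induced genes stood higher in the mutant libraries than in wildtype, but none passed the test over all 4 libraries without a replicate block and with the low count filter. Of 32 interferon-induced genes with a row, 20 had both mutant libraries above both wildtype libraries, 0 had both below, and 12 overlapped; of all gene rows, 13.5% had both mutants above. Their summed level was 197 and 222 CPM in wildtype against 277 and 257 CPM in mutants. Read counts in bulk tissue do not tell more expressing cells apart from more RNA per cell. Under the low count filter lay 7 genes (Isg15, Usp18, Ifit1, Isg20, Ifitm1, Psmb9 and Ifi44), and 25 were tested.

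With edgeR's quasi-likelihood test, adjusted over 14316 genes at a threshold of 0.05, 0 of the 25 tested genes passed (background: 0.0559% of tested genes called higher). DESeq2 also called 0 (background 0.306% higher), with no adjusted p for Ifit3 and Oas1a. At an unadjusted p under 0.05, 11 of the 25 were higher and 0 lower (background 3.88% higher and 1.9% lower). The replicate number was also used as a block, which treats the mutant and wildtype libraries of the same number as a pair. Whether equal numbers mark littermates is not given. With this block 6 of 25 rose: Mx1, Oas1a, Oas2, Oasl2, Psmb8 and Parp14 (background 0.692% higher). Of the 25, 5 (Ifit3, Oas1a, Oas2, Mx1 and Psmb8) passed the filter through the mutant libraries alone and so had to differ; among the other 20, 6 were higher at an unadjusted p under 0.05, and 2, Oasl2 and Parp14, passed with the block. The median log2 fold change was 0.59 over the 25, 0.38 over those 20 and 0.69 over all 32 rows without a filter, against -0.0027 over all tested genes and -0.0101 over all rows with reads. The count of calls without the block moved with single libraries, both among these genes and over all genes. The median log2 fold change of the 25 was 0.489 without mutant 2, 0.519 without mutant 1, 0.497 without wildtype 1 and 0.755 without wildtype 2. In 2 combinations chosen after seeing the data, the block with DESeq2 called 0 of the 25, and the block with a filter of CPM over 1 in at least 3 libraries called 1, Parp14. That filter kept 18 interferon-induced genes and removed the other 5 block calls, whose wildtype levels were under 1 CPM, before any test.

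**Figure D2:**
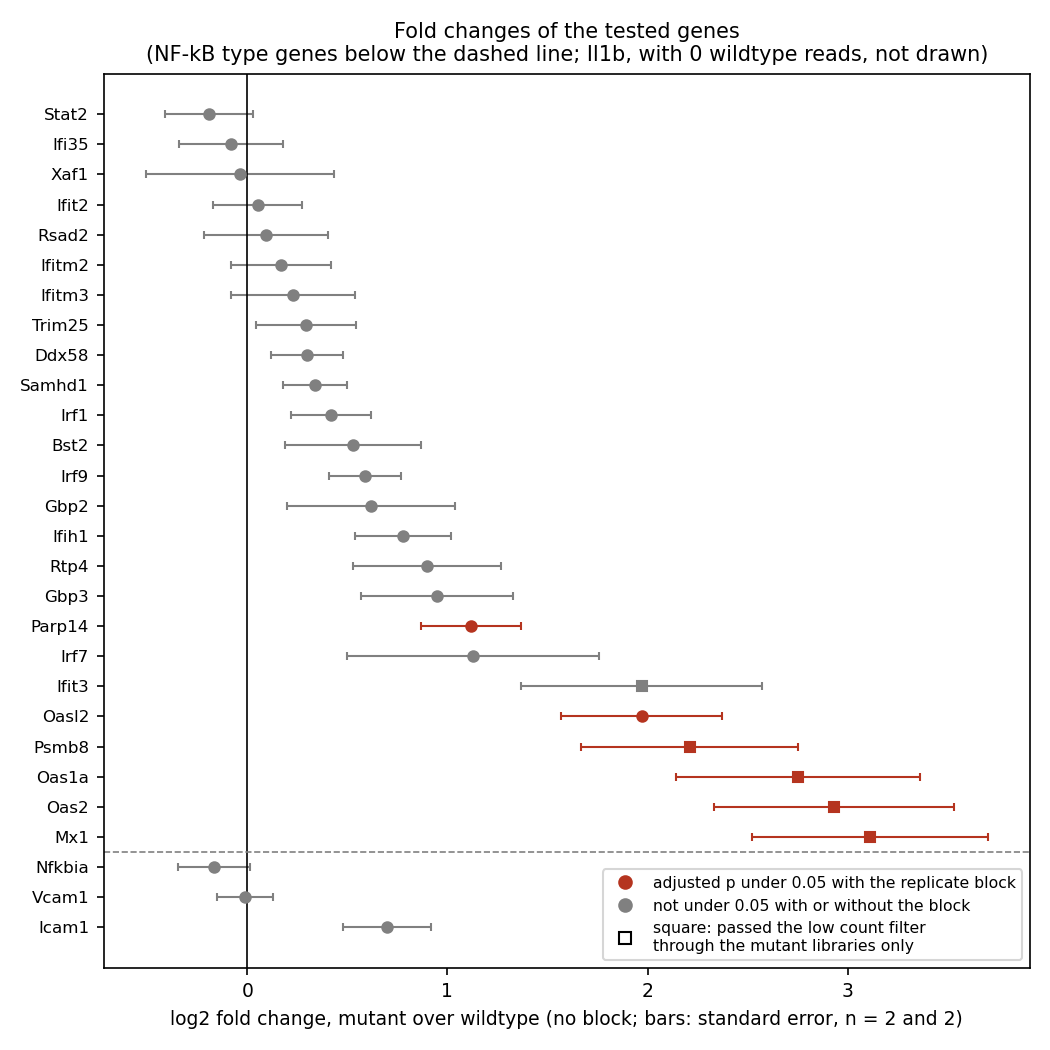
Log2 fold change, mutant over wildtype, of the tested genes in the fit without the block, with standard errors (2 against 2 libraries); red marks genes whose adjusted p was under 0.05 with the replicate block, squares genes that passed the low count filter through the mutant libraries alone. Il1b, with 0 wildtype reads, is not drawn; among the interferon-induced genes Mx1 has the highest value at 3.11 and Stat2 the lowest at -0.19.

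Among the regulators, Irf9, the DNA-binding subunit of the ISRE-binding complex, was at 13.1 and 14.95 CPM in wildtype and at 22.9 and 19.1 CPM in mutants. The groups did not overlap, and the log2 fold change was 0.59 ± 0.18 (adjusted p = 0.516, edgeR); 123 of its exon bases are shared with Rnf31, and reads there cannot be assigned. Irf1, a transcription factor induced by type II interferon, was at 7.98 and 8.07 CPM in wildtype and at 9.98 and 11.5 CPM in mutants, again without overlap (log2 0.42 ± 0.20, adjusted p = 0.891). Stat2, the partner of Irf9, was at 12.8 and 19.2 CPM in wildtype and at 13.7 and 14.3 CPM in mutants, so both mutants lay within the wildtype range (log2 -0.19 ± 0.22, adjusted p = 0.979). Irf7, which amplifies type I interferon production, had 6 and 15 reads in wildtype and 43 and 10 in mutants. Mutant 1 was high and mutant 2 lay inside the wildtype range for Irf7 (log2 1.13 ± 0.63, adjusted p = 0.939), and 45 of its exon bases overlap Phrf1 on the opposite strand.

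The 2 cytosolic RNA sensors both had higher mutant libraries without overlap. Ifih1 was at 4.26 and 5.80 CPM in wildtype and at 8.53 and 8.68 CPM in mutants (log2 0.78 ± 0.24, adjusted p = 0.512). Ddx58, which encodes RIG-I, was at 22.3 and 20.7 CPM in wildtype and at 29.6 and 23.0 CPM in mutants (log2 0.30 ± 0.18, adjusted p = 0.952). For Ddx58 the gap between the lower mutant and the higher wildtype library was smaller than the gap between the mutants.

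The oligoadenylate synthetase family, whose enzymes detect double-stranded RNA and switch on RNase L, included 3 genes that passed with the block, of which Oas1a and Oas2 entered the test through the mutant libraries alone. Oasl2, an oligoadenylate synthetase-like family member, was at 0.798 and 0.883 CPM in wildtype and at 4.05 and 2.47 CPM in mutants. It lies at chr5:114896936-114912234, passed the filter in both groups, and its log2 fold change was 1.97 ± 0.40 (adjusted p = 0.176, edgeR; 0.0156 with the block; 0.000158 to 0.816 over its 9 alternatives with an adjusted p). Oas2 (chr5:120730333-120749853) had 2 and 4 reads in wildtype and 36 and 16 in mutants, a log2 fold change of 2.93 ± 0.60 (adjusted p = 0.179; 0.017 with the block; 0.00343 to 1 over its 9 alternatives). Oas1a (chr5:120896256-120907521), whose promoter with 2 overlapping ISRE matches is printed above, had 3 and 2 reads in wildtype and 26 and 12 in mutants (log2 2.75 ± 0.61, adjusted p = 0.207; 0.0393 with the block; 0.0252 to 1 over its 8 alternatives). In each of these 3 genes mutant 1 was the higher mutant library. Without mutant 2 the log2 fold changes of Oasl2, Oas2 and Oas1a were 2.27, 3.14 and 2.94. Without mutant 1 they were 1.55, 2.64 and 2.49.

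The other enzymes of RNA and nucleotides differed less or were too rare to test. Samhd1, which hydrolyses deoxynucleotides, was at 31.3 and 35.7 CPM in wildtype and at 45.8 and 38.8 CPM in mutants, without overlap (log2 0.34 ± 0.16, adjusted p = 0.891). Rsad2, which encodes viperin, was nearly level, at 2.24 and 2.52 CPM in wildtype against 2.60 and 2.47 CPM in mutants (log2 0.10 ± 0.31, adjusted p = 0.991), although its promoter holds an ISRE. Isg20, an exonuclease, had 1 and 2 reads in wildtype and 4 and 12 in mutants, a ratio of 5.01 with an exact binomial 95% interval of 1.43 to 26.8 that covers counting error only.

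Mx1 had the lowest unadjusted p among the interferon-induced members, but it passed the filter through the mutant libraries alone and so had to differ. This dynamin-like GTPase gene (chr16:97447035-97462907) had 3 and 2 reads in wildtype against 34 and 15 in mutants, or 0.160 and 0.126 CPM against 1.495 and 1.06 CPM. The log2 fold change was 3.11 ± 0.59 (edgeR adjusted p = 0.149, 0.0121 with the block, 0.00345 to 1 over its 9 alternatives). It was 3.32 without mutant 2 and 2.81 without mutant 1. C57BL/6 mice are known to carry an Mx1 allele that makes no functional protein, so this is a transcript level alone. The guanylate binding proteins are larger GTPases that act on intracellular pathogens. Gbp3 was at 1.65 and 2.21 CPM in wildtype and at 2.68 and 4.87 CPM in mutants (log2 0.95 ± 0.38, adjusted p = 0.785). Gbp2 was at 2.61 and 2.65 CPM in wildtype and at 2.42 and 5.86 CPM in mutants, so mutant 2 alone was high (log2 0.62 ± 0.42, adjusted p = 0.954; -0.11 without mutant 2).

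Psmb8, a catalytic subunit that replaces its constitutive counterpart in the immunoproteasome, had 9 and 3 reads in wildtype and 31 and 27 in mutants. Psmb8 too entered the test through the mutant libraries alone. Its log2 fold change was 2.21 ± 0.54 (chr17:34197721-34201454; adjusted p = 0.274, edgeR; 0.0499 with the block; 0.0129 to 1 over its 9 alternatives). An antisense transcript, Gm20496, covers 498 of its exon bases, so without a known strand setting these reads are not certain to be Psmb8. Without mutant 1 the log2 fold change of Psmb8 was 2.45, and without mutant 2 it was 1.98, the reverse of the order in the oligoadenylate synthetases. Psmb9, its partner subunit, had 1 and 0 reads in wildtype and 5 and 10 in mutants, a ratio of 14.1 with an exact binomial 95% counting interval of 2.17 to 593. The exons of Psmb9 share 212 bases with Tap1 on the opposite strand.

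The IFIT genes, whose products bind foreign RNA at its end, were not alike. Ifit3 had 3 and 4 reads in wildtype and 18 and 12 in mutants, without overlap (log2 1.97 ± 0.60, adjusted p = 0.491, edgeR, and 0.237 with the block). Ifit3 also entered the test through the mutant libraries alone. Ifit1 was under the filter, with 4 and 2 reads in wildtype and 12 and 16 in mutants. Ifit2, far more abundant, was at 37.9 and 24.1 CPM in wildtype and at 33.7 and 30.6 CPM in mutants, both inside the wildtype range (log2 0.05 ± 0.22, adjusted p = 0.994). The ISG15 system was mostly below the filter. Isg15, a ubiquitin-like modifier, had 1 and 3 reads in wildtype and 11 and 6 in mutants, and Usp18, which removes it, had 7 and 3 reads in wildtype and 12 and 9 in mutants. Trim25, a ubiquitin ligase that acts on RIG-I, was at 19.0 and 33.1 CPM in wildtype and at 35.5 and 27.95 CPM in mutants (log2 0.29 ± 0.25, adjusted p = 0.972).

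Membrane proteins that hinder viral entry or release overlapped between the groups, apart from Bst2. Bst2, or tetherin, was at 1.60 and 2.59 CPM in wildtype and at 2.90 and 3.11 CPM in mutants (log2 0.53 ± 0.34, adjusted p = 0.954). Ifitm2 was at 17.2 and 24.3 CPM in wildtype and at 18.4 and 28.4 CPM in mutants (log2 0.17 ± 0.25, adjusted p = 0.979), higher in the libraries numbered 2 than in those numbered 1. Ifitm3 was at 3.99 and 7.57 CPM in wildtype and at 6.64 and 6.85 CPM in mutants (log2 0.23 ± 0.31, adjusted p = 0.979). Ifitm1 had 4 or 5 reads in every library.

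Parp14, an ADP-ribosyltransferase at chr16:35832874-35871544, had the highest level per length, 1.02, among the 6 genes that rose with the block. It had 108 and 100 reads in wildtype and 360 and 145 in mutants, or 5.75 and 6.31 CPM against 15.8 and 10.2 CPM. The log2 fold change was 1.12 ± 0.25 (adjusted p = 0.207, edgeR; 0.0381 with the block; 0.000133 to 0.816 over its 11 alternatives, 0.0578 with DESeq2). In the authors' deposited table, which listed 15 of the members, Parp14 alone of those 15 was under an adjusted p of 0.05 (log2 fold change 1.10 as mutant over wildtype, adjusted p = 0.0137). Rtp4, a chaperone of membrane receptors, was at 1.12 and 1.20 CPM in wildtype and at 2.38 and 1.91 CPM in mutants, without overlap (log2 0.90 ± 0.37, adjusted p = 0.816). Xaf1, a binding partner of an apoptosis inhibitor, was at 4.52 and 2.46 CPM in wildtype and at 4.88 and 1.76 CPM in mutants (log2 -0.04 ± 0.47, adjusted p = 0.996), and it followed the replicate number, not the genotype. Ifi35 was at 4.31 and 4.10 CPM in wildtype against 3.74 and 4.23 CPM in mutants (log2 -0.08 ± 0.26, adjusted p = 0.991). Ifi44 had 3 and 5 reads in wildtype and 4 and 6 in mutants.

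The size of the difference was not the same in the 2 numbered pairs. Mutant 1 was above wildtype 1 in 29 of 32 interferon-induced genes, and mutant 2 above wildtype 2 in 26 of 32; over all 23337 rows these counts were 9396 and 9695. The median log2 ratio of the 25 tested genes was 0.80 in pair 1 and 0.35 in pair 2, against -0.0023 and 0.0027 over all tested genes. Of the 25, 5, Mx1 and Psmb8 among them, passed the filter through the mutant libraries alone and so had to differ. These 5 lift both medians. Among the interferon-induced genes Irf7 differed most between pairs, at 2.22 in pair 1 and -0.37 in pair 2. Mx1 was alike in both, at 2.57 and 2.30, and Psmb8 was higher in pair 2, at 1.32 and 2.74. The difference between pairs was not tested, since each pair holds 1 library of each group.

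**Figure D3:**
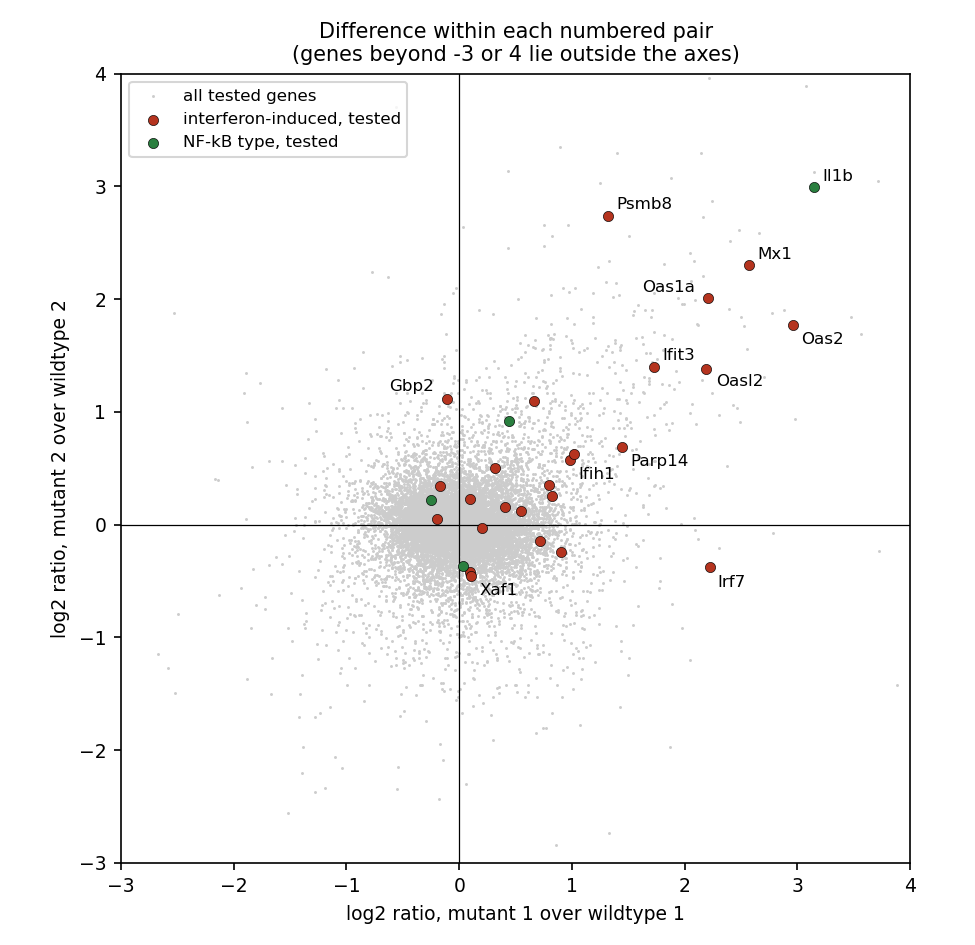
Log2 ratio of mutant over wildtype within pair 1 (horizontal) and pair 2 (vertical) for tested genes, on log2 CPM with a prior count of 2; red points are interferon-induced genes, green points NF-kB type genes, grey points all tested genes. Mx1, Oas1a, Oas2, Oasl2, Ifit3 and Il1b lie toward the upper right, and Irf7 lies at 2.22 in pair 1 and -0.37 in pair 2.

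The NF-kB type genes did not all move in the same direction. Their summed level was 164 and 146 CPM in wildtype against 145 and 169 CPM in mutants, so the groups overlapped. Vcam1 alone held 140 and 120.0 CPM of this sum in wildtype and 118 and 140 CPM in mutants, so the sum mostly follows Vcam1. Of the 5 genes 2, Il1b and Icam1, had both mutants above both wildtype libraries, against 13.5% of all gene rows. Of 4 tested genes, 0 passed with edgeR (background 0.0559% higher) or, Il1b having no adjusted p there, with DESeq2 (background 0.306% higher). At an unadjusted p under 0.05 in edgeR, 2 were higher (background 3.88%). With the block 1, Il1b, rose in edgeR (background 0.692% higher) and 0 in DESeq2. Il1b passed the filter through the mutant libraries alone; without it the median log2 fold change of the tested genes was -0.01, and with it 0.34.

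Il1b, which encodes a cytokine made mainly by myeloid cells, had 0 reads in both wildtype libraries and 20 and 11 reads in mutants (chr2:129364570-129371139). Its mutant level was at least 4.75-fold higher than a wildtype floor of 3 reads per library. The adjusted p was 0.134 with edgeR, 0.00485 with the block, 0.00111 with no filter and 0.419 with the block in DESeq2. An antisense transcript, Il1bos, shares 25 of its exon bases. Icam1, a leukocyte adhesion receptor, was at 7.08 and 7 CPM in wildtype and at 9.68 and 13.3 CPM in mutants, without overlap (log2 0.70 ± 0.22, adjusted p = 0.563), with 511 exon bases covered by an antisense transcript. Vcam1, by CPM the most abundant member, was at 140 and 120.0 CPM in wildtype and at 118 and 140 CPM in mutants (log2 -0.01 ± 0.14, adjusted p = 0.995). Nfkbia, both an inhibitor and a target of NF-kB, was at 16.3 and 18.9 CPM in wildtype and at 16.6 and 14.6 CPM in mutants (log2 -0.17 ± 0.18, adjusted p = 0.979). Tnf, an inflammatory cytokine, had 5 and 0 reads in wildtype and 3 and 7 in mutants.

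Upstream of these genes, the interferons themselves were not detectable at this depth. Of 9 interferon ligand genes 7 had a row; Ifnb1, Ifna1, Ifna2, Ifna4, Ifng and Ifne had 0 reads in all 4 libraries, which allows up to 0.134 to 0.213 CPM per library for counting error alone, and Ifnk had 1 read. Receptors and JAK-STAT genes were well covered, and 0 of 10 tested passed with or without the block, with 0 at an unadjusted p under 0.05 and 0 with DESeq2 (median log2 fold change 0.11). Jak1, the kinase shared by the interferon receptors, was at 173 and 172 CPM in wildtype and at 208 and 183 CPM in mutants (log2 0.19 ± 0.13, adjusted p = 0.954). The receptor gene Ifnar1 was at 106 and 109 CPM in wildtype and at 122 and 124 CPM in mutants (log2 0.19 ± 0.12, adjusted p = 0.954).

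Of the interferon regulatory factors outside the member list, Irf2, a regulator of Irf1 targets, was at 19.5 and 22.2 CPM in wildtype against 29.4 and 21.0 CPM in mutants (log2 0.28 ± 0.20, adjusted p = 0.961). None of 15 tested nucleic acid sensors and adaptors passed with or without the block or with DESeq2. At an unadjusted p under 0.05, 3 were higher (background 3.88% of tested genes). These were Tlr7 (log2 0.96 ± 0.28), Dhx58 (1.61 ± 0.47) and Tlr9 (1.88 ± 0.70), and Tlr9 passed the filter through the mutant libraries alone. The most abundant of the 15, the RNA-activated kinase gene Eif2ak2, had a log2 fold change of -0.03 ± 0.14. Tbk1, a kinase that activates IRF3, had one of -0.18 ± 0.13. Of 6 signalling inhibitors 1 rose with the block (background 0.692% higher). This was Ptpn6, the phosphatase SHP-1 of blood cells, at 3.35 and 2.96 CPM in wildtype and at 8.84 and 6.07 CPM in mutants. Its log2 fold change was 1.25 ± 0.27 (adjusted p = 0.207, edgeR, and 0.0388 with the block). The more widely expressed phosphatase genes Ptpn11 and Ptpn2 had log2 fold changes of 0.18 ± 0.15 and -0.10 ± 0.13.

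Beyond the members, 42 further interferon-induced genes had a row and 35 were tested, with a median log2 fold change of 0.35. By unadjusted p under 0.05, 12 stood higher and 1 lower (background 3.88% and 1.9%). None passed without the block, and 1, Ifi204, was higher with DESeq2 (background 0.306%). With the block 2 were higher and 1 lower (background 0.692% and 0.196%). Ifi204, a DNA-binding protein of myeloid cells, was at 1.17 and 1.45 CPM in wildtype and at 3.74 and 5.93 CPM in mutants (log2 1.87 ± 0.36, adjusted p = 0.149, edgeR; 0.00704 with the block). Sp100, a nuclear body protein, was at 0.532 and 0.757 CPM in wildtype and at 4.09 and 2.05 CPM in mutants (log2 2.28 ± 0.47, adjusted p = 0.179, edgeR; 0.0119 with the block). Gbp4 went the other way, at 13.9 and 10.03 CPM in wildtype and at 3.56 and 6.78 CPM in mutants (log2 -1.25 ± 0.31, adjusted p = 0.301, edgeR; 0.0347 with the block).

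In the NF-kB pathway, 0 of 12 subunit and kinase genes and 0 of 10 receptor and adaptor genes passed with or without the block or with DESeq2. In each list 1 gene was higher at an unadjusted p under 0.05 (background 3.88%). These were Relb (log2 0.82 ± 0.31) among the subunits and kinases and Tnfrsf1b (0.93 ± 0.26) among the receptors and adaptors. Both mutants lay above both wildtype libraries in 7 of the 12 rows and 5 of the 10, against 13.5% of all gene rows. They lay below in 1 of the 12 and 0 of the 10. The median log2 fold change was 0.275 for the 12 subunit and kinase genes and 0.188 for the 10 receptor and adaptor genes. Chuk, an inhibitor kinase gene, had a log2 fold change of -0.12 ± 0.13, Nfkb1 of 0.13 ± 0.13, Irak1 of 0.19 ± 0.15 and Il1r1, the receptor of interleukin 1, of 0.19 ± 0.20. Of 16 further NF-kB induced genes 10 were tested, with a median log2 fold change of 0.41, 8 positive and 2 negative. In 8 of the 16 rows both mutants lay above both wildtype libraries, against 13.5% of all gene rows, and in 1 row both lay below. With the block 1 gene, Ccl2, rose (background 0.692% higher). Ccl2, a chemokine that draws monocytes, was at 1.65 and 2.40 CPM in wildtype and at 7.21 and 11.1 CPM in mutants (log2 2.17 ± 0.32, adjusted p = 0.0654, edgeR; 0.000213 with the block; 3.4e-05 with DESeq2). The abundant Sod2 and Cxcl12 stood at log2 fold changes of -0.28 ± 0.17 and 0.37 ± 0.19. Over all 130 listed pathway genes 103 were tested; 0 passed, 20 stood higher and 2 lower by unadjusted p under 0.05 (background 3.88% and 1.9%), 2 stood higher and 1 lower with DESeq2 (background 0.306% and 0.135%), and 4 rose and 2 fell with the block (background 0.692% and 0.196%). The median log2 fold change was 0.25. The count of pathway genes that passed without the block also moved with single libraries, as did the count over all genes.

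Leukocyte markers stood higher in the same 2 libraries. Macrophage markers had both mutants above both wildtype libraries in 14 of 15 rows, against 13.5% of all gene rows. The macrophage markers summed to 151 and 147 CPM in wildtype against 204 and 238 CPM in mutants. Csf1r, the macrophage growth factor receptor, was at 19.4 and 19.7 CPM in wildtype and at 34.9 and 42.8 CPM in mutants. All 6 pan-leukocyte markers were above in both mutants, at a sum of 59.6 and 65.4 CPM in wildtype against 109 and 111 CPM in mutants. Ptprc, which encodes CD45, rose by 1.97 ± 0.18 on the log2 scale (adjusted p = 0.0119, edgeR), from 6.71 and 7.51 CPM to 29.4 and 26.0 CPM. Lymphocyte markers, the usual source of type II interferon, summed to under 1 CPM in every library (0.532 to 0.968 CPM) and 0 of 9 could be tested. Granulocyte markers summed to 1.22 and 1.07 CPM in wildtype against 4.66 and 3.11 CPM in mutants, with Elane at 0 reads in all libraries. Hepatocyte markers, which cushion tissue should lack, summed to 5.22 and 4.86 CPM in wildtype and, in mutants, to 9.06 and 17.7 CPM. Of the 7, 2 (Alb and Afp) had both mutants above both wildtype libraries, beside 13.5% of all gene rows, and the other 5 overlapped. Erythroid markers summed to 584 and 593 CPM in wildtype against 844 and 648 CPM in mutants. Early response genes that rise on dissection summed to 87.5 and 77.1 CPM in wildtype against 115 and 89.1 CPM in mutants, and Jun held most of this sum. Of these 6 genes, 4 had both mutants above both wildtype libraries and 0 below, against 13.5% of all gene rows above. Their median log2 fold change was 0.46, from 0.10 ± 0.21 for Egr1 to 1.53 ± 0.37 for Hspa1b and 1.60 ± 0.48 for Hspa1a. The part of these cell and handling markers in the interferon-induced and Il1b differences was not tested.

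**Figure D4:**
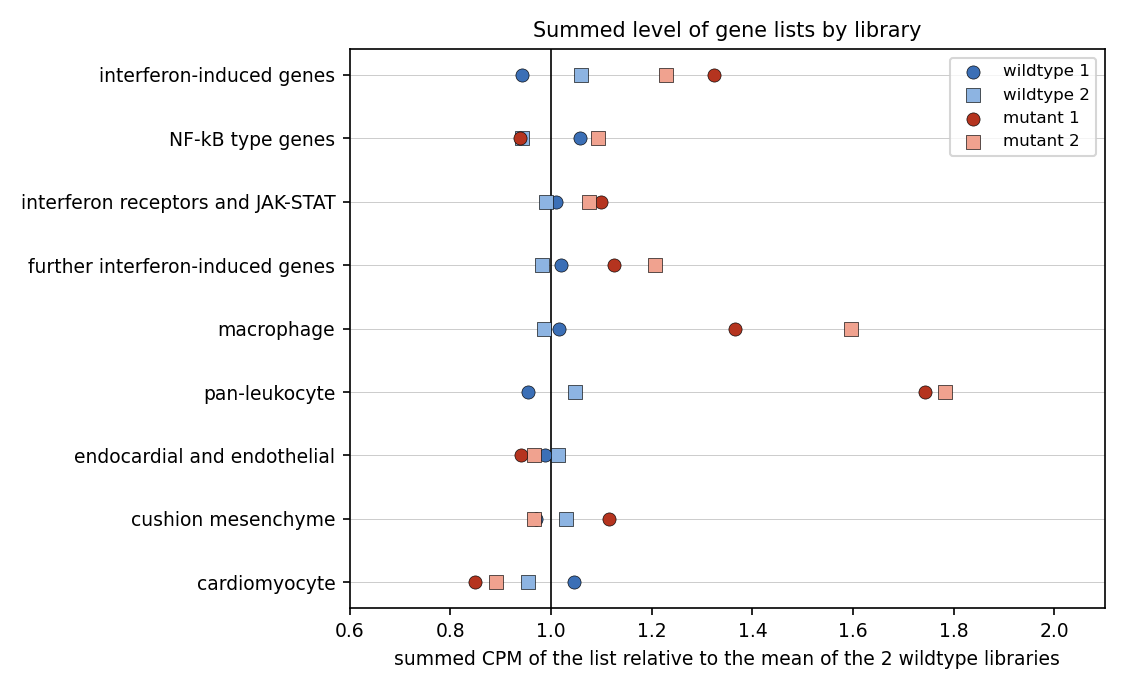
Summed CPM of 9 gene lists in each library, divided by the mean of the 2 wildtype libraries (vertical line at 1). Mutant libraries stand at 1.32 and 1.23 for the interferon-induced genes and at 1.74 and 1.78 for the pan-leukocyte markers. The NF-kB type genes, at 0.938 and 1.09, straddle the wildtype level, and Vcam1 makes up most of their sum.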

How the data were processed

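RNA from dissected cardiac cushions was sequenced in 2 wildtype and 2 mutant libraries after ribosomal RNA depletion. The authors deposited raw counts per gene symbol; the submitters' processing notes name Bowtie2, TopHat2, SAMtools, HTSeq, edgeR and mm10. Which annotation and strand setting the counting used is not given in the sources used here. A further table deposited by the authors gives their own comparison, with p-values, a likelihood ratio score, log2 values of fold change and CPM, and a linear ratio for some rows. Its log2 fold changes run opposite to those from the counts, as wildtype over mutant, and were turned here. Rows that name no gene (no feature 51.8% to 54.4% of tallied reads, several alignments 16.1% to 17.0%) were left out.

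The test was edgeR 4.0.16 under R 4.3.3 (TMM scaling, filterByExpr with a minimum count of 10 in 2 libraries and a total of 15, which kept 14316 genes, quasi-likelihood F test, Benjamini-Hochberg adjustment). CPM uses TMM-scaled library sizes. Pair ratios use log2 CPM with a prior count of 2. The F statistic and the fold change gave the standard errors. Exon lengths and positions are from GENCODE M21, matched by symbol for 20929 of 23337 rows. The fits were tested on simulated counts. Reads carry no molecular identifiers and are not independent molecules, so intervals and floors cover only counting error.

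The series text describes the samples as paired, so equal replicate numbers were read as pairs; across genes, which are no independent replicates, the correlation of the deviations of equal-numbered libraries was 0.144. The block fit leaves 1 residual degree of freedom, against 2 without it. Alternatives were the replicate block, RLE scaling, no filter, a CPM filter, DESeq2 1.42.0, each library left out and, chosen after seeing the data, the block with the CPM filter or DESeq2. Members and lists were chosen with earlier results of these data known. Values per library are printed for members that passed with or without the block and for those next by p, with the other members following; from each pathway list, genes that passed or the 2 most abundant are named. One gene that the rule would name is not reported here.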

Additional observations from a re-analysis of the deposited data

How the results depend on the processing

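The count of tested genes past an adjusted p of 0.05 was 9 without a block, 127 with the replicate block, 236 with no low count filter and 62 with DESeq2. With 2 combinations chosen after seeing the data, the replicate block gave 69 genes under a filter of CPM over 1 in at least 3 libraries and 30 with DESeq2. Leaving out 1 library each gave 0 to 396 genes. Interferon-induced members past the threshold were 0 in the fit without a block, 6 with the replicate block, 6 with no filter, 1 with the block and the CPM filter, 0 with the block and DESeq2, and 0 to 6 with a library left out. NF-kB type members were 0, then 1 with the block, 1 with no filter, 0 with the block and DESeq2, and 0 to 1 with a library left out. Pathway genes were 0, then 6 with the block, 10 with no filter, 3 with DESeq2, 5 with the block and the CPM filter, 1 with the block and DESeq2, and 0 to 9 with a library left out. In edgeR, the block changed no other member's call. The median of the NF-kB type members, 0.34, was 0.69 with no filter, -0.0074 with the CPM filter and -0.00796 with that filter and the block, since the filter drops Il1b. RLE scaling moved the median of all genes by -0.000915.

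Over 303 values of 29 tested members under the alternatives, 266 kept their direction and side of the threshold, 24 in 8 members newly passed it and 13 in 9 members changed sign, each of the latter with a library left out. Over the fits without 1 library, the log2 fold change spanned -0.456 to 0.126 for Stat2, -0.0518 to 0.743 for Trim25, -0.237 to 0.42 for Ifit2, -0.112 to 1.15 for Gbp2, -0.164 to 0.455 for Ifitm2, -0.164 to 0.755 for Ifitm3, -0.164 to 0.0092 for Ifi35, -0.992 to 0.478 for Xaf1 and -0.135 to 0.106 for Vcam1. Apart from the filter, the cause of these moves was not tested. A lone library was assumed to vary like the other group. Depth limited 8 members with a row (7 interferon-induced, and Tnf) to counts too low to test, and DESeq2 gave no adjusted p for 3 tested members. Those 3 DESeq2 values are among the 266 and were judged by direction alone.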

Other observations

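The guanylate binding protein genes, which lie in a cluster on chromosome 3 and another on chromosome 5, had different values in the 2 clusters; this grouping was made after the values were seen, and the difference between clusters was not tested. On chromosome 3, Gbp7 had 139 and 117 reads in wildtype and 199 and 200 in mutants (log2 fold change 0.62 ± 0.25, adjusted p = 0.811, edgeR), and Gbp5 had 8 and 10 reads in wildtype and 13 and 26 in mutants (log2 1.11 ± 0.64, adjusted p = 0.942), beside Gbp3 at 0.95 ± 0.38 and Gbp2 at 0.62 ± 0.42. On chromosome 5, Gbp4 had 262 and 159 reads in wildtype and 81 and 96 in mutants (log2 -1.25 ± 0.31, adjusted p = 0.301; 0.0347 with the block), Gbp9 had 440 and 347 reads in wildtype and 452 and 260 in mutants (log2 -0.24 ± 0.16, adjusted p = 0.954), and Gbp6 was at 0.06 ± 0.48. The annotated spans of Gbp4 and Gbp9 overlap, and the members of this family are near copies of each other, so how reads were divided between them is uncertain.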
